A study of Mus musculus with 8 samples.

Results

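The 10 genes described here encode proteins that keep transposable elements and other repeats silent. They are Trim28, Setdb1, Mphosph8, Fam208a, Morc2a, Dnmt1, Dnmt3a, Dnmt3b, Uhrf1 and Atrx, chosen by name for their known function from the 55487 genes of the count table. Fam208a is an older name of the gene now called Tasor. Their RNA was measured in tumors of the mouse lung cancer line LLC (Lewis lung carcinoma), implanted under the skin of C57BL/6J mice with an intact immune system and collected at day 12. The implanted cells were wild-type in 4 tumors and were labelled Ago2 knock-out (ΔAgo2) in the other 4, with 1 mouse per tumor and no treatment. Ago2 was targeted in the cancer cells by a CRISPR guide in a lentivirus, and clones were grown from single cells, so clone and genotype cannot be told apart, and the host cells within each tumor keep Ago2.

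Silencing of repeats in mammalian cells rests on layers that act together. Zinc finger proteins bind a repeat and recruit TRIM28, which brings the histone methyltransferase SETDB1 to place H3K9 trimethylation. The HUSH complex, with MPHOSPH8 and FAM208A among its subunits and MORC2A as a partner, spreads and maintains that mark. DNA methylation is set by DNMT3A and DNMT3B and copied after replication by DNMT1 with its guide UHRF1, while ATRX loads the histone variant H3.3 onto repeats. The study compared these tumors to learn how Ago2 in cancer cells shapes tumor growth, and it considered release of transposable elements as a source of inflammation. The question addressed here is whether the transcripts of the silencing machinery itself differed between the genotypes.

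Ago2 is loaded with microRNAs, and several of the 10 transcripts carry sites for well-known microRNA families. The miR-29 family is known to repress Dnmt3a and Dnmt3b, and miR-148a, miR-148b and miR-152, together called the miR-148 family here, to repress Dnmt1. The mature sequences below are shown because their seeds define the sites that were counted. They come from RefSeq on GRCm38.p6 and have the seed, bases 2 to 8, in capitals.
mmu-miR-29a-3p: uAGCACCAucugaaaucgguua
mmu-miR-29b-3p: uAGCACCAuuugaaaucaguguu
mmu-miR-29c-3p: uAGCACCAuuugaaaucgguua
mmu-miR-148a-3p: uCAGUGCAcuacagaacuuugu
mmu-miR-152-3p: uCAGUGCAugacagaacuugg
mmu-miR-101a-3p: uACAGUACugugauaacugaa

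The members of a family share the same seed and differ in the bases after it. A site was counted wherever the 3′UTR of the gene's coding transcript held the reverse complement of the seed, on the transcript strand only. The site is TGGTGCT for miR-29, TGCACTG for miR-148 and GTACTGT for miR-101. Among 13529 tested genes with a 3′UTR, 13.6% held at least 1 miR-29 site, 13.4% a miR-148 site and 9.98% a miR-101 site. Dnmt3a stood out for its number of sites, with 5 for miR-29 in a 3′UTR of 6696 bases, where the median length was 942 bases. Only 9 of the 13529 3′UTRs held 5 or more miR-29 sites, and 7 of these 9 were among the 438 of at least 5000 bases, 49.1% of which held at least 1. The windows below show these 5 sites and the single sites of Dnmt3b, Dnmt1 and Uhrf1 in capitals, as GRCm38 positions and 5′ to 3′ on the transcript strand, each in the last exon.
Dnmt3a, site 1, chr12:3908561-3908590 (+): cgacttcataaTGGTGCTttcaaaacagcg
Dnmt3a, site 2, chr12:3908988-3909017 (+): acaaaatgtacTGGTGCTttctgtctaagt
Dnmt3a, site 3, chr12:3910824-3910853 (+): tcagctgggccTGGTGCTcccgtgcctggg
Dnmt3a, site 4, chr12:3911394-3911423 (+): ggggaggtagcTGGTGCTagcaccagggtc
Dnmt3a, site 5, chr12:3911463-3911492 (+): gggtcccaagcTGGTGCTaattcctctcat
Dnmt3b, chr2:153686616-153686645 (+): gtagcccggcaTGGTGCTcatgttctctta
Dnmt1, chr9:20907480-20907509 (-): agagccccacgTGCACTGatgtttttaacc
Uhrf1, chr17:56323104-56323133 (+): ttttcagagagTGCACTGactgggtgtcat

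Sites 4 and 5 of Dnmt3a, and those of Dnmt1 and Uhrf1, continue with an A and are thus of the longer 8mer kind. Setdb1, Morc2a and Atrx held 1 miR-29 site each, and Atrx held 2 sites for miR-101 where Dnmt3a held 1. Trim28, Mphosph8 and Fam208a held none of the 3 kinds of site, with 3′UTRs of 173, 258 and 2858 bases. A match of letters is a description and does not show that a microRNA acts there. The microRNAs themselves were not analysed here.

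Read depth was uneven. Total gene counts ran from 7903288 to 52809635 in the wild-type tumors and from 31846706 to 268564145 in those labelled ΔAgo2. CPM is the count relative to the scaled library total. On the totals before scaling, 0 counts allow up to 0.38 CPM in the shallowest library and 0.0112 CPM in the deepest, for counting error only. Of the 16061 genes tested by edgeR's quasi-likelihood test, 560 (3.49%) passed an adjusted p of 0.05, with 219 higher and 341 lower in the tumors labelled ΔAgo2. Fold changes were lower in GC-rich transcripts, at a Spearman rho of -0.561 over the genes tested, all of which share the same libraries. The median log2 fold change ran from 0.75 in genes of at most 40% GC to -0.70 in genes above 60%. Wild-type tumor 3 stood apart in its neighbouring tissue, with skeletal muscle markers at a sum of 3080 CPM (35.0 to 430.4 CPM elsewhere) and skin keratinocyte markers at 11.8 CPM (163 to 889.9 CPM elsewhere). Removing this tumor changed no call among the 10 genes. The defining lung markers Nkx2-1, Sftpc and Scgb1a1 had 0, 3 and 4 counts over all libraries. Krt8 and Krt18 of the same list were present at 231 CPM or more in every tumor. Epcam held 0.736 to 2.10 CPM in wild-type and 1.57 to 4.36 CPM in tumors labelled ΔAgo2. Cdh1 held 2.44 to 6.91 and 8.49 to 13.99 CPM, which did not overlap. Neither passed the adjusted threshold by edgeR (adjusted p = 0.119 and 0.0628). All 4 tested genes of this list had a positive log2 fold change, with a median of 0.84, where 52.5% of all genes were positive. The Ago2 transcript was not lower in the tumors labelled ΔAgo2, at 239.5 ± 99.2 CPM against 154 ± 28.9 CPM in wild-type (SD, n = 4), so it does not check the labels. Nothing in these bulk samples can tell fewer cells of a type from less RNA per cell.

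All 10 genes were detected in all 8 tumors and passed the count filter. None of them passed the adjusted threshold between genotypes by edgeR, where 3.49% of all genes did. At an unadjusted p under 0.05, 3 were higher in the tumors labelled ΔAgo2, namely Fam208a, Dnmt3a and Atrx, against 13.7% of all genes tested. Trim28 alone was lower at that level, against 13.0% of all genes. The log2 fold change was positive for 8 of the 10, with a median of 0.30, where all genes tested had a median of 0.04 and 52.5% were positive. The DESeq2 Wald test, the study's tool, called those same 4 genes, with 6.99% of all genes called higher and 7.17% lower. The 4 values of each genotype did not overlap for Dnmt3a, which was higher, and for Trim28, which was lower. Such separation was seen in 8.05% of all genes tested in the higher direction and 8.36% in the lower.

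**Figure D1:**
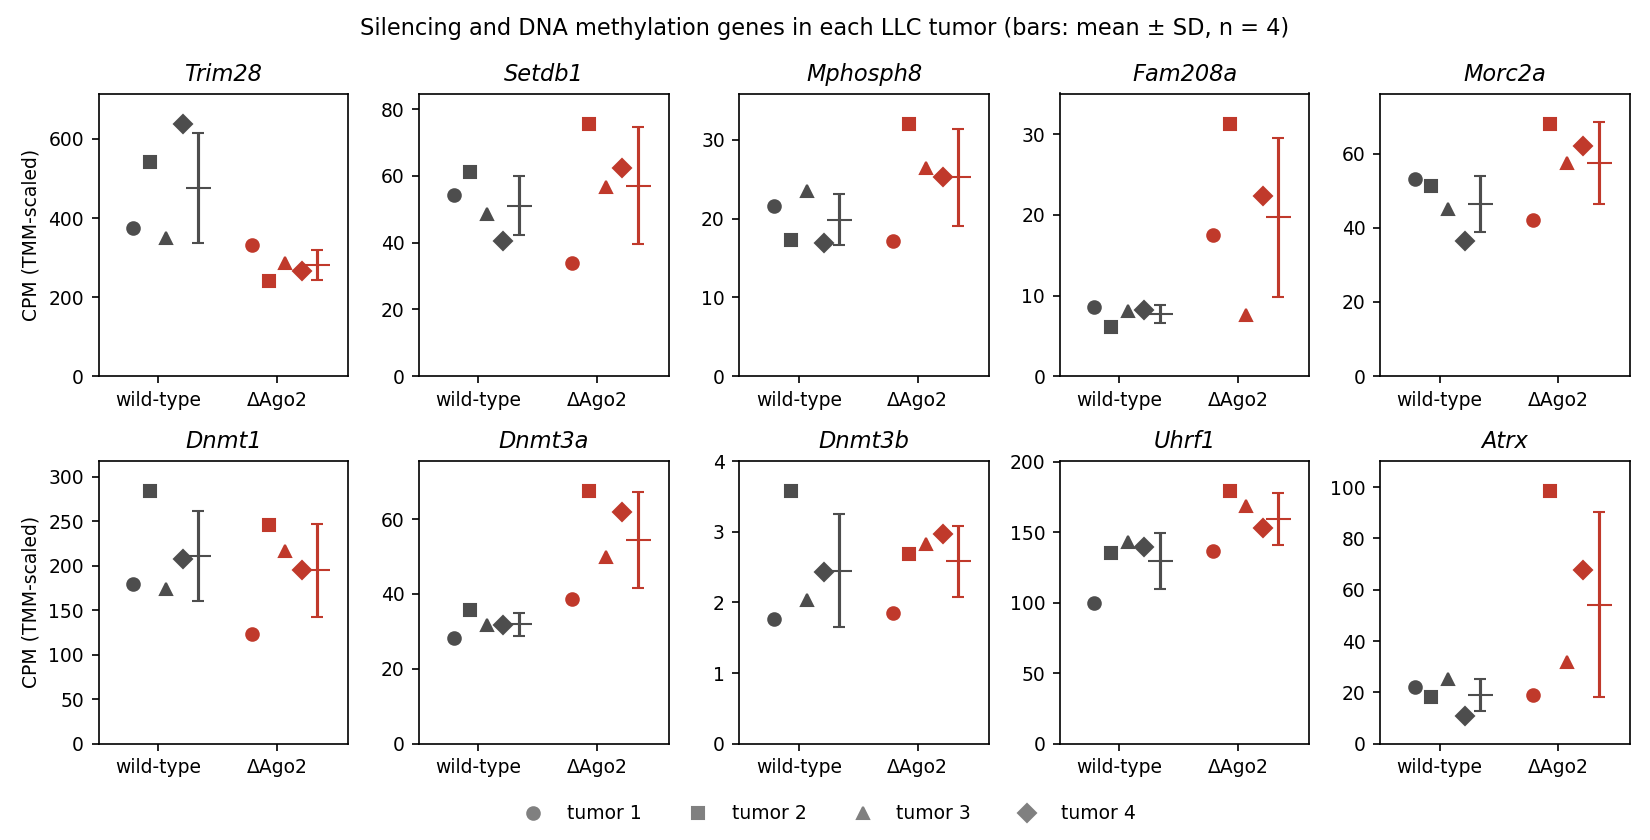
CPM on TMM-scaled library totals for each of the 10 genes, with 1 marker per tumor, wild-type in grey and ΔAgo2 in red, and the mean ± SD of 4 tumors beside them. The 2 genotypes lie apart only for Dnmt3a and Trim28, and for Atrx and Fam208a the red markers spread over a wide range.

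Levels of different genes were compared per length, with the deposited TPM, which take transcript length into account. Trim28 was the most abundant, with a median of 229.6 TPM over the 8 tumors. Uhrf1 followed at 93.6 TPM and Dnmt1 at 79.6 TPM, and their order held in 6 of 8 tumors with overlapping ranges. Setdb1, Morc2a and Mphosph8 formed a middle group with medians of 24.0, 23.2 and 18.0 TPM, and Setdb1 exceeded Morc2a in 4 of 8 tumors. The de novo methyltransferase Dnmt3a had a median of 5.80 TPM, Atrx 3.11 TPM, Fam208a 1.79 TPM and Dnmt3b 1.45 TPM. Of the 9 neighbours in this order, only Trim28 and Uhrf1 had ranges that did not overlap.

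Trim28 encodes the corepressor that links zinc finger proteins to SETDB1. It lies on chromosome 7 from 12999114 to 13031035 on the plus strand. It was lower in every tumor labelled ΔAgo2 than in any wild-type tumor, a difference that did not pass the adjusted threshold. Wild-type tumors 1 to 4 held 374, 543, 349 and 638 CPM. Tumors 1 to 4 labelled ΔAgo2 held 331, 242, 285 and 266 CPM. The wild-type values spread widely, with tumors 2 and 4 well above tumors 1 and 3, while the other group was tight and lay just under the lowest wild-type value. Its log2 fold change was -0.76 (SE 0.24, 95% interval -1.29 to -0.24), with an adjusted p of 0.0933 by edgeR with Benjamini-Hochberg adjustment and of 0.0308 by DESeq2. At 59.6% GC, Trim28 was the most GC-rich of the 10, and all genes of 55 to 60% GC had a median log2 fold change of -0.44. The high wild-type tumors 2 and 4 were also the libraries in which counts rose most with GC, by 0.67 and 0.87 on the log2 scale per 10 points of GC, where the other 6 ran from -0.62 to -0.02. Once each library's GC trend was removed, the log2 fold change was -0.20 with an adjusted p of 0.412.

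Setdb1, the H3K9 methyltransferase recruited by TRIM28, showed no detectable difference. It lies on chromosome 3 from 95323525 to 95357202 on the minus strand. Levels were 54.2, 61.2, 48.5 and 40.4 CPM in wild-type tumors 1 to 4. It was 33.8, 75.6, 56.8 and 62.3 CPM in the tumors labelled ΔAgo2. Tumors 1 and 2 labelled ΔAgo2 were the lowest and the highest of all 8. Its log2 fold change was 0.16 with a 95% interval from -0.40 to 0.72 and an adjusted p of 0.707 by edgeR, and it was -0.05 after GC correction. Within a tumor, the log2 ratio of Setdb1 to Trim28 was -3.19 ± 0.55 in wild-type and -2.35 ± 0.69 in tumors labelled ΔAgo2 (SD, n = 4). For that difference of 0.84 (SE 0.44), the exact permutation test over all 70 assignments of the tumors gave a two-sided p of 0.114, or 0.190 adjusted over the 5 ratios tested. It was 0.11 after GC correction.

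None of the HUSH genes passed the adjusted threshold by edgeR. Fam208a, the scaffold subunit of HUSH, lies on chromosome 14 from 27428834 to 27483555 on the plus strand. Its level was 8.62, 6.10, 8.11 and 8.17 CPM in wild-type tumors 1 to 4. It was 17.5, 31.3, 7.64 and 22.4 CPM in tumors 1 to 4 labelled ΔAgo2. The wild-type tumors were close together and 3 of the tumors labelled ΔAgo2 were at least 2.03 times as high as any of them, but tumor 3 sat within the wild-type range. On the log2 scale the fold change was 1.35 (SE 0.37, 95% interval 0.53 to 2.16), with an adjusted p of 0.0687 by edgeR and 0.0091 by DESeq2. Without ΔAgo2 tumor 3 it was 1.62, and edgeR's adjusted p was 0.0380, and leaving out ΔAgo2 tumor 2 gave 1.02 with 0.198. Fam208a is AT-rich at 39.0% GC, genes of at most 40% GC had a median log2 fold change of 0.75, and after GC correction the value was 0.41 with an adjusted p of 0.533. Its exons share 12.9% of their bases with Ccdc66 on the opposite strand, and the strand setting of the counting is not given in the sources used here.

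Mphosph8 encodes the HUSH subunit that reads H3K9 methylation, on chromosome 14 from 56668248 to 56697430 on the plus strand. It held 21.6, 17.3, 23.5 and 16.9 CPM in wild-type tumors and 17.2, 32.0, 26.4 and 25.3 CPM in those labelled ΔAgo2. The groups overlapped through ΔAgo2 tumor 1. Its log2 fold change was 0.34 (95% interval -0.18 to 0.86, adjusted p = 0.360 by edgeR), and it changed sign to -0.28 after GC correction. Morc2a, an ATPase that compacts HUSH targets, lies on chromosome 11 from 3649191 to 3690477 on the plus strand. It held 53.2, 51.3, 45.0 and 36.4 CPM in wild-type tumors and 42.1, 68.0, 57.3 and 62.1 CPM in those labelled ΔAgo2. Tumor 1 labelled ΔAgo2 again lay within the wild-type range and the other 3 lay above it. Its log2 fold change was 0.30 (95% interval -0.16 to 0.77, adjusted p = 0.366 by edgeR) and 0.19 after GC correction. Exons of Mphosph8, Morc2a and Setdb1 share 10.7%, 7.52% and 4.73% of their bases with genes on the opposite strand.

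Among the DNA methyltransferases, the de novo enzyme Dnmt3a was higher in all 4 tumors labelled ΔAgo2 than in any wild-type tumor, while Dnmt1 and Dnmt3b overlapped between the genotypes. Dnmt3a lies on chromosome 12 from 3806007 to 3914443 on the plus strand. In wild-type tumors 1 to 4 its level was 28.3, 35.8, 31.6 and 31.8 CPM. It was 38.6, 67.4, 50.0 and 61.9 CPM in tumors 1 to 4 labelled ΔAgo2. The wild-type values stayed within a narrow band, and the lowest ΔAgo2 value, in tumor 1, was just above the highest of them. On average it held 31.9 ± 3.07 CPM in wild-type and 54.5 ± 12.8 CPM in ΔAgo2 (SD, n = 4). Its log2 fold change was 0.77 (SE 0.21, 95% interval 0.30 to 1.25), which missed the adjusted threshold by edgeR at 0.0700 and passed it by DESeq2 at 0.0156. Leaving out ΔAgo2 tumor 1 gave 0.90, and edgeR's adjusted p was then 0.0242, whereas leaving out ΔAgo2 tumor 2 gave 0.64 with an adjusted p of 0.211 and tumor 4 gave 0.72 with 0.208.

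Dnmt3a has 52.0% GC. All genes of its range (50 to 55%) had a median log2 fold change of -0.12, and Dnmt3a lay 0.90 above it. After GC correction its log2 fold change was 0.82, with an adjusted p of 0.0504 by edgeR. It did move with length: its exons span 16642 bases, and after removal of each library's trend on length the value was 0.36 with an adjusted p of 0.220. Its antisense neighbour Dnmt3aos reached at most 18 counts in a library, and the pseudogene Dnmt3a-ps1 had 0 counts in all 8.

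**Figure D2:**
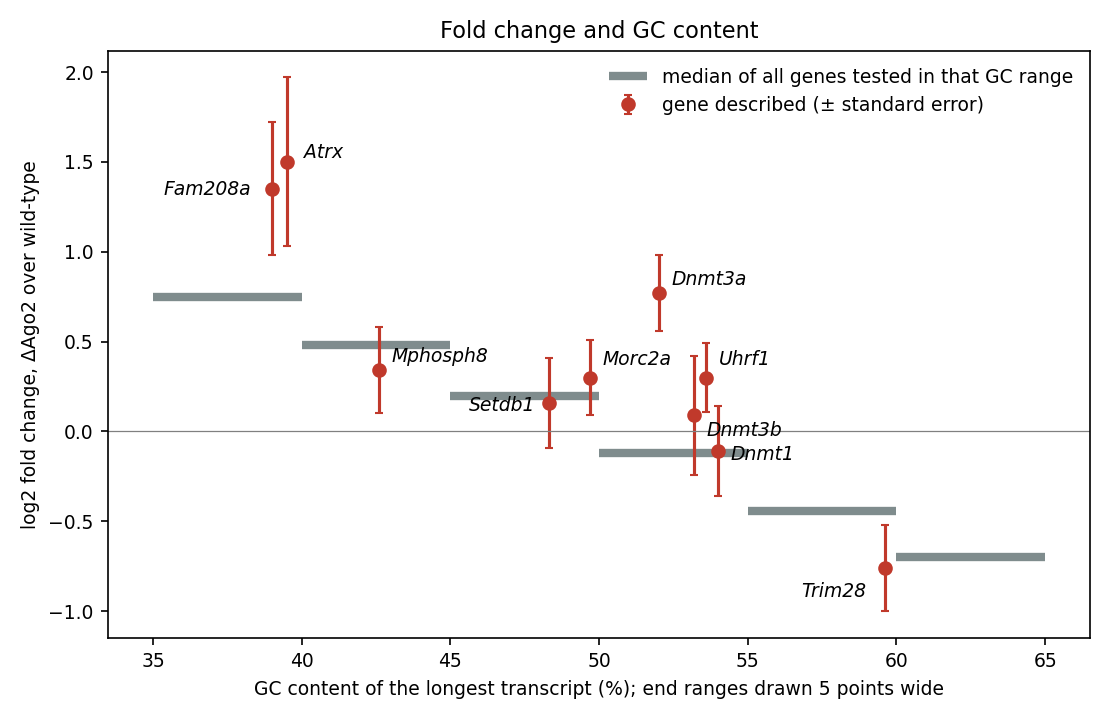
The log2 fold change (ΔAgo2 over wild-type) of the 10 genes, as points with standard errors, against the GC percentage of the transcript, with grey bars for the median of all genes tested in each GC range. Atrx and Fam208a at the AT-rich end lie 0.75 and 0.60 above the bar of their range, Trim28 at the GC-rich end lies 0.32 below its bar, and Dnmt3a lies 0.90 above a bar that is itself below 0.

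Dnmt3b, the other de novo enzyme, lies on chromosome 2 from 153649450 to 153687730 on the plus strand. It was close to the bottom of the range of levels. Its level was 1.76, 3.58, 2.04 and 2.44 CPM in wild-type tumors and 1.85, 2.68, 2.84 and 2.97 CPM in those labelled ΔAgo2. Wild-type tumor 4 held only 17 counts of it. The groups overlapped, with a log2 fold change of 0.09 (95% interval -0.65 to 0.82, adjusted p = 0.887 by edgeR). Set against Dnmt3a within each tumor, the log2 ratio of Dnmt3b to Dnmt3a was -3.98, -3.31, -3.94 and -3.69 in wild-type tumors 1 to 4. It was -4.37, -4.64, -4.13 and -4.37 in the tumors labelled ΔAgo2. All 4 of the latter lay under all 4 of the former, a difference of -0.64 (SE 0.19). The exact two-sided permutation p was 0.0286, the smallest that 4 against 4 can give, and 0.143 after adjustment over the 5 ratios, so a single ratio could not pass in this design. After GC correction the difference was -0.56, with the same adjusted p of 0.143 by the exact permutation test. The ratio was not computed with length correction, under which the log2 fold change was 0.36 for Dnmt3a and -0.04 for Dnmt3b.

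Dnmt1, the maintenance methyltransferase, lies on chromosome 9 from 20907209 to 20959888 on the minus strand. In wild-type tumors 1 to 4 it stood at 179, 284, 173 and 207 CPM. Tumors 1 to 4 labelled ΔAgo2 held 123, 246, 217 and 195 CPM. The highest value was a wild-type tumor and the lowest was ΔAgo2 tumor 1, with the rest intermixed. The log2 fold change was -0.11 (95% interval -0.67 to 0.45, adjusted p = 0.799 by edgeR), and it turned to 0.10 after GC correction.

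Uhrf1, which brings DNMT1 to newly replicated DNA, lies on chromosome 17 from 56303321 to 56323486 on the plus strand. In wild-type tumors 1 to 4 it stood at 99.8, 135, 143 and 139.8 CPM. It held 137, 179, 169 and 153 CPM in the tumors labelled ΔAgo2. Only ΔAgo2 tumor 1 fell within the wild-type range. The log2 fold change was 0.30 (95% interval -0.12 to 0.72, adjusted p = 0.324 by edgeR) and 0.46 after GC correction (adjusted p = 0.173 by edgeR). Limma voom with quality weights, which gives divergent libraries less weight, called Uhrf1 at an adjusted p of 0.0390. That test called 4476 of the 16061 genes tested, and no other alternative run called Uhrf1.

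Uhrf1 and Dnmt1 are both transcribed in proliferating cells, so they were set against a list of 18 DNA replication and cell cycle genes. That list summed to 2296 to 2462 CPM in wild-type tumors and to 2526 to 2827 CPM in the tumors labelled ΔAgo2, with no overlap. Its median log2 fold change was 0.13 with 10 of 18 positive, and 0.00 after GC correction. By edgeR 0 of the 18 genes were called, where 3.49% of all genes were, and at an unadjusted p under 0.05 5 were higher (13.7% of all genes) and 1 was lower (13.0%). Relative to the mean log2 level of that list, Uhrf1 differed by 0.08 (SE 0.17) between genotypes, with an exact permutation p of 0.743, and by 0.44 after GC correction, with an adjusted exact permutation p of 0.143. Dnmt1 differed by -0.36 (SE 0.29), with an exact permutation p of 0.314, and by 0.02 after GC correction. The log2 ratio of Uhrf1 to Dnmt1 rested at -0.69 ± 0.34 in wild-type and -0.25 ± 0.27 in tumors labelled ΔAgo2 (SD, n = 4). The difference of 0.44 (SE 0.22) had an exact permutation p of 0.114, and 0.190 adjusted over the 5 ratios.

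**Figure D3:**
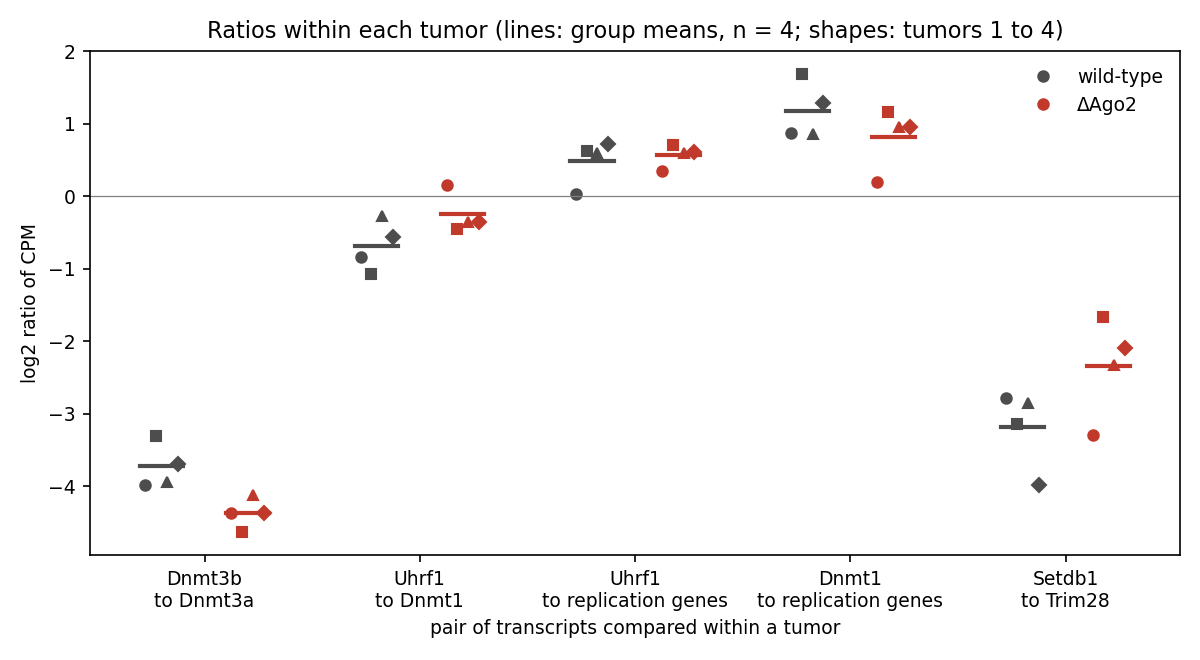
The log2 ratio of CPM within each tumor for 5 pairs, with wild-type in grey, ΔAgo2 in red, marker shapes for tumors 1 to 4 and lines for group means. Groups lie apart only for Dnmt3b to Dnmt3a, from -3.98 to -3.31 in wild-type and from -4.64 to -4.13 in ΔAgo2.

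Atrx, a chromatin remodeler that deposits H3.3 at repeats, showed the largest log2 fold change of the 10 and also the widest spread. It lies on chromosome X from 105797615 to 105929403 on the minus strand, and its exons span 21757 bases. Its level was 22.0, 18.1, 25.1 and 10.9 CPM in wild-type tumors 1 to 4. It was 19.0, 98.4, 31.7 and 67.8 CPM in tumors 1 to 4 labelled ΔAgo2. Tumors 2 and 4 labelled ΔAgo2 were far above every other tumor, tumor 3 was slightly above the wild-type range and tumor 1 was inside it. On the log2 scale the fold change was 1.50 (SE 0.47, 95% interval 0.48 to 2.53), with an adjusted p of 0.0904 by edgeR and 0.0171 by DESeq2. It was 1.03 without ΔAgo2 tumor 2, and 1.77 with an adjusted p of 0.0292 by edgeR without ΔAgo2 tumor 1. Tumors 2 and 4 labelled ΔAgo2 were also the libraries in which counts fell most with GC, by 0.62 and 0.45 on the log2 scale per 10 points. Atrx has 39.5% GC, and after GC correction its log2 fold change was 0.60 with an adjusted p of 0.301, and 0.96 with 0.0527 after length correction.

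The same tumors recurred at the edges. ΔAgo2 tumor 2 was the highest of its genotype for 8 of the 10 genes, and ΔAgo2 tumor 1 the lowest for 8 of the 10. Trim28 ran the other way, with its highest ΔAgo2 value in tumor 1 and its lowest in tumor 2. The GC slopes of these libraries were -0.62 and -0.02 on the log2 scale per 10 points of GC. ΔAgo2 tumor 1 also had the lowest sum of fibroblast markers, 2213 CPM, where the others labelled ΔAgo2 had 4104 to 4592 CPM and the wild-type tumors 4859 to 7193 CPM. These sums did not overlap between the genotypes. Most of each sum was Col3a1, at 3762 to 5751 CPM in wild-type and 1407 to 3701 CPM in the tumors labelled ΔAgo2. The 7 fibroblast genes had a median log2 fold change of -0.64, with Dcn and Pdgfra positive at 0.16 and 0.68. Groups lay apart in the lower direction for 2 of the 7, where 8.36% of all genes did. At an unadjusted p under 0.05 by edgeR, 4 of the 7 were lower (13.0% of all genes) and 1 was higher (13.7%). Leukocyte markers, at 225 to 381 CPM in wild-type and 265 to 376 CPM in tumors labelled ΔAgo2, and endothelial markers, at 82.5 to 127 and 89.7 to 115 CPM, overlapped between the groups. Within the leukocyte list 10 of 11 tested genes had a positive log2 fold change, where 52.5% of all genes did. Some of these were close to 0, with Cd3e, Cd79a and Cd4 at 0.01, 0.03 and 0.09. At an unadjusted p under 0.05 by edgeR, 2 of the list were higher, where 13.7% of all genes were. The most abundant gene of the list, the macrophage receptor Csf1r, ran the other way at -0.40 (adjusted p = 0.236 by edgeR). Ptprc (CD45), named after its values were seen, held 13.9 to 33.1 CPM in wild-type and 35.5 to 83.6 CPM in the tumors labelled ΔAgo2, which did not overlap, at an adjusted p of 0.0785 by edgeR. Of all genes tested, 8.05% lay apart in the higher direction. Ptprc is AT-rich at 39.4% GC, and its log2 fold change was 1.121, where genes of at most 40% GC had a median of 0.75. Its GC-corrected value is not given here. The sums of skeletal muscle markers did not overlap either, at 202 to 3080 CPM in wild-type and 35.0 to 172 CPM in those labelled ΔAgo2. The highest was wild-type tumor 3, and the other wild-type tumors had 202 to 430 CPM. Taken singly, only 1 of the 6 genes, Acta1, had groups that did not overlap, where 8.36% of all genes lay apart in the lower direction. All 6 were lower at an unadjusted p under 0.05 by edgeR (13.0% of all genes), with a median log2 fold change of -2.87 that includes wild-type tumor 3. Skin keratinocyte markers had positive values for all 6, with a median of 1.37, where 52.5% of all genes were positive. Of these 6, 1 gene, Krt10, was called higher (adjusted p = 0.0460 by edgeR), where 3.49% of all genes were called. It was also the only 1 at an unadjusted p under 0.05 by edgeR. The sums overlapped, at 11.8 to 577 CPM in wild-type, lowest in tumor 3, and 458 to 890 CPM in those labelled ΔAgo2. The part of cell composition in these differences was not tested.

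**Figure D4:**
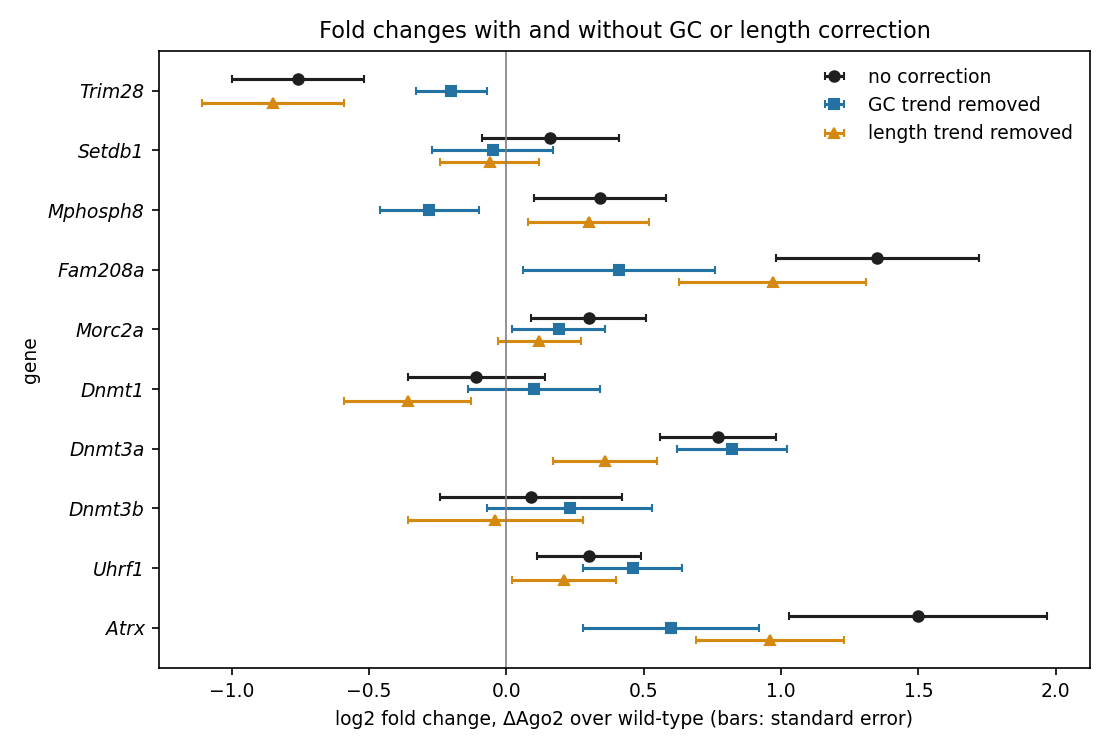
The log2 fold change (ΔAgo2 over wild-type) of each gene with its standard error, without correction, after removal of each library's trend on GC content and after removal of its trend on the exon length of the gene. GC removal brought Trim28 from -0.76 to -0.20, Fam208a from 1.35 to 0.41 and Atrx from 1.50 to 0.60 and left Dnmt3a at 0.82, while length removal brought Dnmt3a to 0.36.

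The transcripts with miR-29 sites were also described as a group. Over all tested genes with a 3′UTR, the median log2 fold change was 0.03 in 11691 genes with no miR-29 site, 0.15 in 1545 with 1 site, 0.28 in 235 with 2 and 0.35 in 58 with 3 or more. After GC correction these medians were -0.05, 0.03, 0.09 and 0.23. The uncorrected medians were likewise larger with more sites for the other families, from 0.03 with no site to 0.41 with 3 or more for miR-148 and from 0.02 to 0.47 for miR-101. For miR-148 the GC-corrected medians were -0.04, 0.00, 0.10 and 0.13, and for miR-101 -0.04, 0.02, 0.02 and 0.01. The 3′UTR grew longer with the number of miR-29 sites, from a median of 815 bases with no site to 4796 bases with 3 or more, and the part of 3′UTR length in these values was not tested. Dnmt3a with 5 sites lay above the median of its group at 0.82 after GC correction, and Dnmt3b, Setdb1, Morc2a and Atrx with 1 site each had 0.23, -0.05, 0.19 and 0.60. After length correction Dnmt3a was at 0.36, and medians of the groups were not computed with that correction.

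Of 54 further genes of the pathway, 39 passed the count filter and 0 were called by edgeR, where 3.49% of all genes were. DESeq2 called 6 of them, Cbx5, Resf1, Hells, Tdg and Tet2 higher (6.99% of all genes) and Suv39h1 lower (7.17% of all genes). Among 17 heterochromatin partners (H3K9 methyltransferases, HP1 proteins and HUSH, SUMO and CAF-1 factors) the median log2 fold change was 0.23 and 11 were positive. The GC-corrected median was -0.05. At an unadjusted p under 0.05, 4 were higher and 2 were lower, where 13.7% and 13.0% of all genes were. Resf1, which takes part in silencing of endogenous retroviruses, had the largest change of the list. It held 37.0, 36.4, 41.7 and 27.7 CPM in wild-type tumors and 47.1, 142, 56.2 and 97.5 CPM in those labelled ΔAgo2. The groups did not overlap, yet with a log2 fold change of 1.26 (SE 0.33) its adjusted p was 0.0625 by edgeR, and the value was 0.48 after GC correction. Cbx5 and Suv39h1, named after their values were seen, also had groups that did not overlap. In this list of 17, 3 genes lay apart in the higher direction and 1 in the lower, where 8.05% and 8.36% of all genes did. Cbx5, the HP1α protein that binds H3K9 methylation, had a log2 fold change of 1.24 (adjusted p = 0.0526 by edgeR) and of 0.62 after GC correction. Suv39h1, an H3K9 methyltransferase of pericentromeric repeats, ran the other way at -0.63 (adjusted p = 0.0898 by edgeR) and stayed at -0.74 after GC correction (adjusted p = 0.0574 by edgeR).

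DNA methylation cofactors and readers, 10 genes, had a median log2 fold change of 0.22, with 8 positive and 1 higher at an unadjusted p under 0.05, where 13.7% of all genes were. That gene was Hells, a remodeler that opens repeats to DNA methylation, with 26.9, 14.3, 36.7 and 15.9 CPM in wild-type and 32.2, 77.5, 35.7 and 53.6 CPM in those labelled ΔAgo2. The groups overlapped, with a log2 fold change of 1.08 (SE 0.36, adjusted p = 0.107 by edgeR) that was 0.18 after GC correction.

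The 4 genes of active DNA demethylation had a median log2 fold change of 0.83, and 3 of them were higher at an unadjusted p under 0.05, where 13.7% of all genes were. Levels of Tet2, which oxidizes methylcytosine, were 4.87, 7.10, 4.08 and 5.16 CPM in wild-type tumors. It stood at 6.96, 23.6, 8.60 and 17.7 CPM in the tumors labelled ΔAgo2, of which tumor 1 alone lay within the wild-type range. Its log2 fold change was 1.43 (SE 0.40, adjusted p = 0.0701 by edgeR) and 0.94 after GC correction. The others were Tet3 at 0.88 and Tdg, the glycosylase that removes oxidized bases, at 0.77, with 1.07 and 0.57 after GC correction. Exons of Tet2 and Tet3 span 16870 and 16695 bases, close to those of Dnmt3a, and length-corrected values of this list are not given here. Groups did not overlap for Tdg, as in 8.05% of all genes in the higher direction. Tet1 was at or under 0.431 CPM in every tumor.

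The 5 partners of ATRX had a median log2 fold change of 0.03. Daxx, the H3.3 chaperone that pairs with ATRX, had a log2 fold change of -0.08 (adjusted p = 0.817 by edgeR). Morc3, an ATPase of H3.3 silencing, had the largest of the list, 0.93 (SE 0.34, adjusted p = 0.124 by edgeR), and 0.45 after GC correction.

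The last list holds germline genes that promoter DNA methylation is known to keep off in somatic cells. Of 18 such genes, 15 stayed under 1 TPM in every tumor and 4 had 0 counts in all 8. The list summed to 5.17 to 6.20 CPM in wild-type tumors and to 4.47 to 6.72 CPM in the tumors labelled ΔAgo2, and the groups overlapped. Only Brdt, Piwil2 and Dpep3 passed the count filter. Brdt, a testis bromodomain protein, made up most of the sum at 3.53 to 4.59 CPM in wild-type tumors and 2.44 to 3.79 CPM in the tumors labelled ΔAgo2. Dpep3 had the largest log2 fold change, 1.62 (SE 0.62, adjusted p = 0.133 by edgeR), at under 1 CPM in every tumor. For the genes left out by the filter, a difference was not detectable at this depth.

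**Figure D5:**
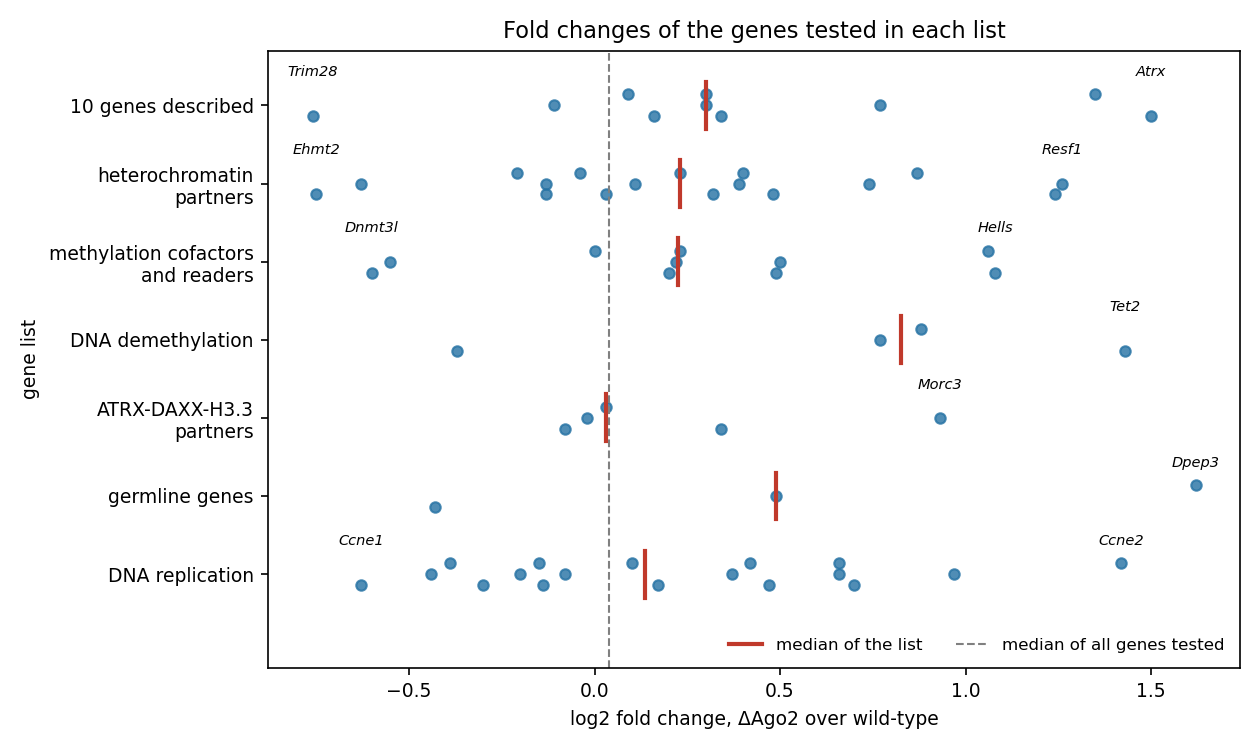
The log2 fold change (ΔAgo2 over wild-type) of each tested gene, 1 point per gene, for the 10 genes and the other lists, with a red line for the list median and a dashed line for the median of all genes tested, 0.04. Among the lists drawn, demethylation has the highest median at 0.83 over 4 genes, and the highest gene of each list and the lowest of 4 lists are named.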

How the data were processed

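RNA was measured in 8 tumors, lysed in TRIzol, with a stranded Illumina mRNA kit and paired-end sequencing. The authors deposited raw gene counts, with no normalization, and TPM, which scale counts by gene length. The submitters' notes name STAR and mm10. The paper names featureCounts and DESeq2 for cultured cells. The annotation release, strand setting and treatment of multiply mapped reads are not given in the sources used here, so counts of overlapping genes are uncertain. Identifiers were matched to GENCODE M21 on GRCm38, and 99.83% had an entry.

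Genotypes were compared on the counts with edgeR 4.0.16 in R 4.3.3 (filterByExpr, TMM, quasi-likelihood test without covariate, Benjamini-Hochberg over all genes tested). CPM used TMM-scaled totals and log2 ratios a prior count of 2. GC and length trends of each library were fitted by a spline on genes averaging 50 counts or more, and used as offsets. DESeq2 1.42.0, limma 3.58.1 on voom weights or log2(TPM + pseudocount), other scalings and filters, thinning to the shallowest library, the replicate block and leaving out each tumor were alternatives. Scripts were tested on simulated data. Annotation and figures used Python 3.11.15. Groups and replicate numbers came from sample titles, and all libraries carry 1 batch label. The labels do not say that replicate numbers mark shared material, so p-values measure the spread between mice.

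Named genes were by rule the 10 genes, Ago2 and, in each further list, genes past the threshold or else the one with the largest change. Other genes, among them Cbx5, Suv39h1, Tet1, Tet3, Tdg, Daxx, Brdt, Csf1r and Ptprc, were named outside this rule. The 10 genes and all lists were chosen with earlier results of these data known. Libraries of the same genotype differed by more than counting noise, at a chi-square of 42.8 or more per degree of freedom, and all 8 were kept.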

Additional observations from a re-analysis of the deposited data

Results flagged for a closer look

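The values of 92 sets of 4 tumors (1 gene, ratio or summed list in 1 genotype) were searched for a tumor far from the others by Dixon's 95% limit, and 5 sets held one, where chance gives about 1 in 20. Skeletal muscle markers summed to 3080 CPM in wild-type tumor 3 and to 202 to 430.4 CPM in the other wild-type tumors. Demethylation genes summed to 108 CPM in wild-type tumor 2 and to 74.2 to 79.7 CPM in the others. The ATRX partners summed to 1170 CPM in ΔAgo2 tumor 1 and to 973 to 983 CPM in the others. Csf1r stood at 124 CPM in ΔAgo2 tumor 4 and at 164 to 172 CPM in the others. Tet1 stood at 0.0615 CPM in ΔAgo2 tumor 1 and at 0.269 to 0.308 CPM in the others. None of the sets for the 10 genes and the 5 ratios held such a tumor.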

How the results depend on the processing

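Counts of calls depended on the test. Of the 10 genes, DESeq2 and limma voom called 4 each and edgeR without a count filter 2, and 0 were called with other scalings, GC or length correction, equal depth or TPM. The sets of 4 differed, since voom called Uhrf1 and put Fam208a, called by DESeq2, at an adjusted p of 0.0591. Leaving out 1 tumor gave 0 to 2 calls among them, 2 without ΔAgo2 tumor 1, 1 without ΔAgo2 tumor 3 and 0 otherwise. Of the 54 pathway genes, DESeq2 called 6, voom 14, no count filter 3, a minimum of 10 counts in each library 1 and length correction 3, with 0 to 4 on leaving out 1 tumor (4 without ΔAgo2 tumor 1, 1 without wild-type tumor 3). Of all genes, against 560, DESeq2 called 2274, voom 4476, no count filter 983, length correction 1201, log2(TPM + 1) 153 and log2(TPM + 0.1) 107, with 88 (without ΔAgo2 tumor 4) to 1793 (without ΔAgo2 tumor 1) on leaving out 1 tumor, and within 1.5 times of 560 only without wild-type tumor 1. The causes were not tested.

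The direction of 4 genes with small values turned. Setdb1 was at -0.05 with GC correction and -0.06 with length correction, and -0.02 to 0.33 on leaving out 1 tumor. Mphosph8 was at -0.28 with GC correction. Dnmt1 was at 0.11 with voom, 0.10 with GC correction and 0.09 with either TPM setting, and -0.26 to 0.07 on leaving out 1 tumor. Dnmt3b was at -0.04 with length correction, and -0.05 to 0.34 on leaving out 1 tumor. The difference in the log2 ratio of Uhrf1 to the replication list ran from -0.07 to 0.15 on leaving out 1 tumor and was 0.44 with GC correction, and that of Dnmt1 turned to 0.02 with GC correction. Trim28, Fam208a, Morc2a, Dnmt3a, Uhrf1 and Atrx kept their direction under every alternative run.

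Same-numbered tumors did not pair, since the correlations of their deviations from group means were -0.236, 0.103, -0.045 and -0.290. The replicate block called 0 of the 10 genes and 70 of all genes, and 0 of the pathway genes. With GC correction the replicate block called 315 genes, and put Setdb1 at -0.09, Mphosph8 at -0.28 and Dnmt1 at 0.05. Sign flips of pairs in the replicate block gave adjusted exact p of 0.312 or more for the ratio differences. With 4 pairs this test cannot reach a p of 0.05, so it decides nothing about the ratios. The differences themselves stay the same by construction, since the mean over pairs equals the difference of group means. Wild-type tumor 4 is the shallowest library, and values of Dnmt3b rest there on 17 counts.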
